A study of Sus scrofa with 22 samples.

Results

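Homeobox and PAX genes encode transcription factors that set the identity of segments and tissues in the embryo and remain active in the adult uterus. The members of this group were found by their gene symbols, from these families: the HOX, PAX, sine oculis (SIX4 and its relatives), MSX, LHX, EMX, MEIS, PBX, IRX, TGIF, CUX, PITX, DLX, POU, HNF1 and ZEB families. Of the 107 such genes in the pig annotation, 43 were listed in at least 1 of 3 count tables, which together held 12401 genes. The table of LE (luminal epithelium) held 40 members among 11415 genes. That of GE (epithelium of the glands) held 39 of 11676, and that of S (stroma) 34 of 11532.

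The 3 cell types had been cut by laser capture microdissection from frozen sections of endometrium collected on Day 12, stained with Cresyl violet, and sequenced as total RNA. All gilts were prepuberal crosses of German Landrace and Piétrain whose ovulation had been synchronized with PMSG and hCG. The 4 pregnant gilts (01, 03, 05 and 14) were inseminated with semen, and the 4 cyclic control gilts (02, 04, 06 and 13) received only the supernatant left after the semen of that boar had been centrifuged. LE and GE were represented by 8 libraries each and S by 6, with 3 gilts per group.

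HOX genes lie in clusters, and their order on the chromosome follows the order of their expression along the body axis. Low paralogue numbers mark anterior positions, and high numbers such as HOXA10 and HOXA11 mark the uterus and are needed there for implantation. PBX, MEIS and TGIF proteins belong to the TALE class, and PBX and MEIS proteins bind DNA together with HOX proteins. PAX2 and EMX2 are needed to build the Müllerian duct, from which the uterus forms. MSX1 and MSX2 act in uterine epithelium around implantation, and ZEB1 and ZEB2 repress epithelial genes in mesenchymal cells.

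The libraries held between 893912 and 4020796 counts, and the shallowest was the LE library of pregnant gilt 01, where a floor of 3 counts stood at 3.61 CPM (counts scaled by the TMM library size). Defining markers did not follow the labels throughout. The 11 stromal fibroblast markers summed to between 5563 and 12690 CPM in 5 of the 6 S libraries, below the 10320 to 25550 CPM of the LE libraries in 4 of those 5, and to 65950 CPM in the S library of pregnant gilt 01. The 11 epithelial markers summed to between 2843 and 5229 CPM in the other 5 S libraries, against 3404 to 5854 CPM in LE, and to 1382 CPM in S of gilt 01. Among the GE libraries, that of control gilt 02 held the most stromal marker counts (49530 CPM) and the fewest epithelial ones (884.8 CPM). Among the LE libraries, that of pregnant gilt 01 held the most stromal (25550 CPM) and blood endothelium (1621 CPM) marker counts. Its 3 smooth muscle markers summed to 4811 CPM, against at most 667.5 CPM in any other LE library. FOXA2, a gland marker, was listed in GE and S and not in LE. For the members called in S, values without gilt 01 are also given. In captured tissue, fewer cells of a type and less RNA per cell cannot be told apart.

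PAX2, HOXA3 and HOXB8 fell in LE of pregnant gilts, and no member rose. They were the members below a false discovery rate (FDR) of 0.01 in edgeR's quasi-likelihood test, 3 of 40 or 7.5%, against 10.0% of all LE genes in either direction and 3.71% in the lower and 6.33% in the higher direction. Wider measures gave more members on the lower side. At an FDR below 0.05, 12 members were lower and 1 was higher. The 13 of 40 compare with 22.4% of all genes in either direction, and the share of all genes by direction is not given. In 16 members every pregnant LE library lay below every control library (40%, against 12.6% of all LE genes), and in 2, TGIF1 among them, every pregnant library lay above (14.1% of all genes). Markers of other cell types also differed between the LE groups without overlap. ACP5, the 1 gland marker of 4 listed in LE, was at 158.4 to 352.5 CPM in control and 5.55 to 72.2 CPM in pregnant gilts, and the 5 leukocyte markers shared by the tables summed to 102.3 to 220.4 and 77.3 to 96.4 CPM. The epithelial markers summed to 3404 to 4117 CPM in control and 4305 to 5854 CPM in pregnant LE. That sum joins opposite directions, since 4 of the 11 epithelial markers were called higher and 3 lower. MUC1 was at 199.7 to 264.5 CPM in control and 852.2 to 1475 CPM in pregnant LE, and KRT8 at 937.2 to 1154 and 271.0 to 539.3 CPM. Their part in the results was not tested. The median log2 fold change, pregnant against control, was -0.55 over the members and 0.01 over all genes.

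**Figure D1:**
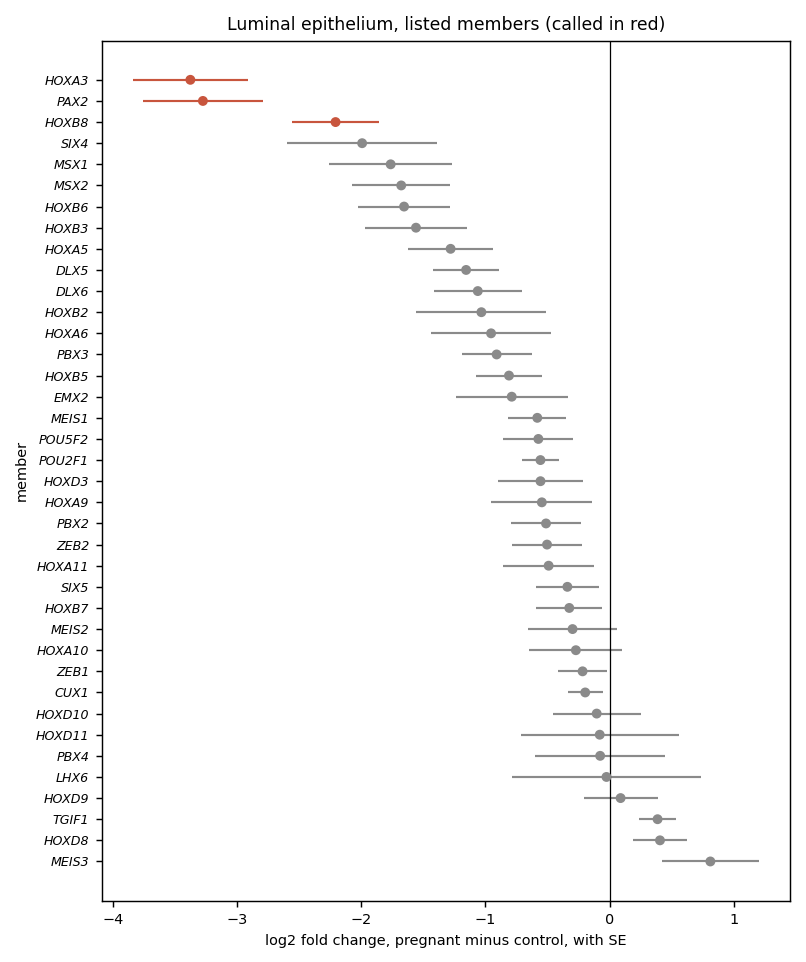
Log2 fold change (pregnant minus control) of 38 of the 40 members listed in luminal epithelium, with the standard error as bars (4 gilts per group). Of those drawn, 34 lie below 0; HOXA3, PAX2 and HOXB8, in red, passed the FDR of 0.01.

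PAX2 (chr14:111822334-111914950, plus strand) was the most highly expressed member in control LE per kilobase of exon, at 80.7 ± 7.3 CPM per kb (SD, n = 4). Its level in LE was 346, 354, 411 and 341 CPM in control gilts 02, 04, 06 and 13. In pregnant gilts 01, 03, 05 and 14 it was 9.64, 21.2, 31.8 and 80.1 CPM, so that the groups were far apart. The log2 fold change was -3.28 (SE 0.49, FDR 0.00126), a level 9.69-fold lower. Its level in pregnant LE was 7.93 ± 6.9 CPM per kb (SD, n = 4).

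HOXA3 (chr18:45421542-45467803, plus strand), an anterior gene of the HOXA cluster, was weakly expressed in control LE. Its annotated span covers HOXA4, HOXA5 and HOXA6. It shares 1.6% of its exon bases with genes on the same strand and 6.0% with genes on the other. The LE level of HOXA3 was 9.03, 18.8, 15.9 and 15.2 CPM in control gilts 02, 04, 06 and 13. It was 0, 1.59, 1.23 and 1.90 CPM in pregnant gilts 01, 03, 05 and 14. These pregnant libraries held 0, 3, 4 and 6 counts, with no overlap with the controls. The log2 fold change was -3.38 (SE 0.46, FDR 0.000830).

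HOXB8 (chr12:24865985-24879706, minus strand) stood at 92.1, 81.6, 70.9 and 59.3 CPM in LE of control gilts 02, 04, 06 and 13. In pregnant gilts 01, 03, 05 and 14 it stood at 6.02, 11.2, 17.3 and 26.9 CPM, again without overlap. The log2 fold change was -2.21 (SE 0.35, FDR 0.00172). The annotation holds no HOXB9, so the counts of HOXB8 may include reads of that gene, which was not tested. Without the shallow library of gilt 01, PAX2, HOXA3 and HOXB8 stayed below the FDR threshold, with log2 fold changes of -3.02, -3.20 and -2.01. That library also held the most smooth muscle, stromal and blood endothelium marker counts of LE. The number of members called with the stromal marker sum as a covariate is given at the end. The part of the smooth muscle and blood endothelium markers was not tested. Gilt 01 held the lowest level in 12 of the 16 members whose groups did not overlap downwards, and gilt 14 the highest of the pregnant gilts in 13.

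HOXB6 (chr12:24849741-24853494, minus strand), which lies close to HOXB8, missed the threshold at an FDR of 0.0103 (log2 fold change -1.66, SE 0.37). Its LE level was 184, 201.4, 137 and 137 CPM in the controls and 16.9, 41.4, 61.7 and 82.7 CPM in pregnant gilts 01, 03, 05 and 14. It passed without gilt 01 (FDR 0.00519).

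**Figure D2:**
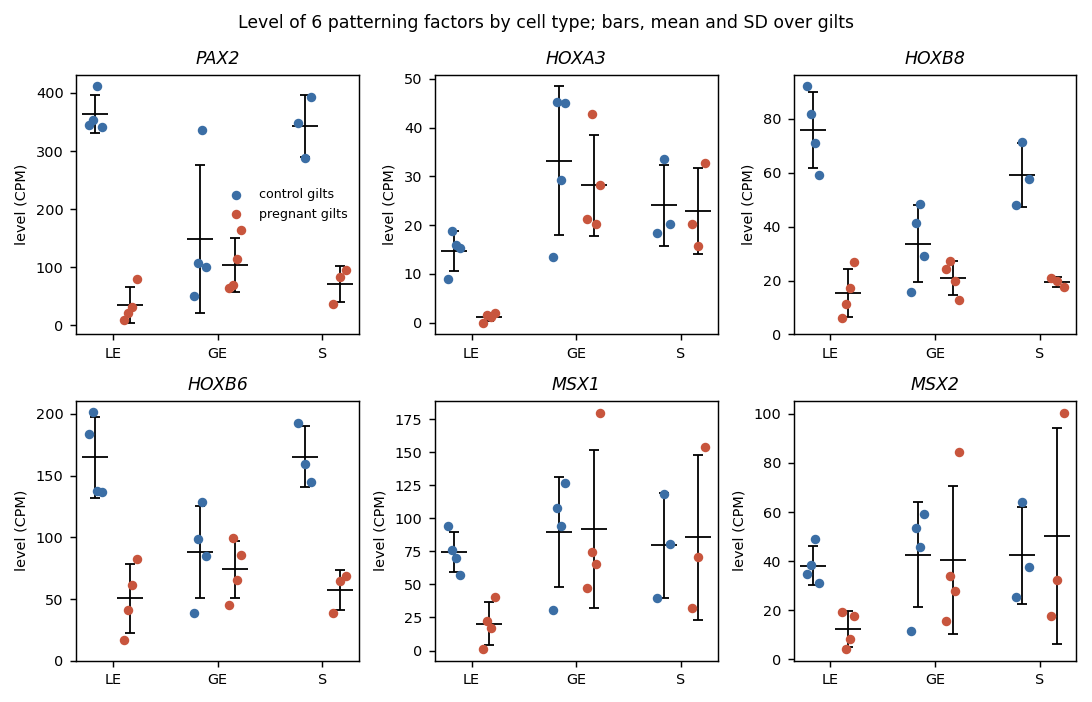
Level in CPM of 6 members in LE, GE and S, each point one gilt (blue control, red pregnant) and the bars the mean and SD. PAX2, HOXB8 and HOXB6 are low in pregnant LE and pregnant S, and HOXA3, MSX1 and MSX2 are low in pregnant LE.

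Both HOXB8 and HOXB6 were lower in pregnant S and had low levels in pregnant LE. The 250 bases before their annotated starts are therefore shown, and these windows differ in composition. They were read from the Sscrofa11.1 genome on the gene's strand, with CpG dinucleotides in capitals. The windows were chr12:24879707-24879956 and chr12:24853495-24853744, both on the minus strand.
HOXB8: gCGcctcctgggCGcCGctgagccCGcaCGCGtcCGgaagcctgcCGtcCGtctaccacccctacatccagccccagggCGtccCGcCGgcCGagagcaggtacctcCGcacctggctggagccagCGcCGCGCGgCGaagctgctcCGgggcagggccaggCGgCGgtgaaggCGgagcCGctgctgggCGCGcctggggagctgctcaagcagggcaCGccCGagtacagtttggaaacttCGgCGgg
HOXB6: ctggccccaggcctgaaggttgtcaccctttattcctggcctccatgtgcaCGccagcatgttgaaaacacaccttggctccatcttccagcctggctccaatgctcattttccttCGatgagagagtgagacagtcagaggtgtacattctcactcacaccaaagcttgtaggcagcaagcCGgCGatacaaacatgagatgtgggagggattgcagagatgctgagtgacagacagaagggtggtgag

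The window of HOXB8 held 30 CpG dinucleotides and that of HOXB6 held 4. The median was 13 over the 43 listed members and 11 over 20653 protein-coding genes, so that 1 window lay above both medians and 1 below. Both strands of the windows were searched for 5 motifs. The palindromic oestrogen response element was found in 0 of 43 member windows and in 2 of 20653. The HOX-PBX motif TGATTNAT was found in 2 (PBX4 and POU6F1; 2.17% of all windows), the TATA box TATAAA in 4 (10.4%), CCAAT in 9 (32.0%) and the ZEB-type E-box CAGGTG in 6 (19.4%). A match is only a run of letters, and the annotated start may differ from the one used in endometrium. The annotated HOXB8 spans chr12:24865985-24879706, and HOXB9 has no gene in the annotation. The HOXB8 window may therefore hold coding bases of HOXB9, and its CpG count is not read as that of a start region.

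In the HOXB cluster on chromosome 12, all 6 listed genes were lower in pregnant LE. The log2 fold changes were -1.03 for HOXB2, -1.56 for HOXB3, -0.81 for HOXB5, -1.66 for HOXB6, -0.32 for HOXB7 and -2.21 for HOXB8, with only HOXB8 past the threshold. The size did not follow the order of the genes, since HOXB7 lies between the 2 largest values. In HOXB3, control LE held 118 to 155 CPM and pregnant LE 9.64 to 75.4 CPM (FDR 0.0228), with 11.4% of its exon bases shared with a gene on the other strand. HOXB1 and HOXB13 were annotated and not listed.

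The 2 listed genes inside the HOXB cluster that were tested in LE are no members. MIR10A, which encodes a microRNA, had a log2 fold change of -0.97 in LE (FDR 0.289), and the uncharacterized LOC102166259 on the other strand had -2.63 (FDR 0.0139). To see whether the difference reached beyond the clusters, the 3 nearest listed genes on each side of the HOXA, HOXB and HOXD clusters were read, a choice made after the values were seen. Of these 18 neighbours, 1 was lower (JAZF1 beside HOXA, -1.30, FDR 0.00803) and 1 higher (SNX10 beside HOXA, 1.66, FDR 0.00171) in pregnant LE. Over all LE genes, 3.71% were called lower and 6.33% higher. SKAP2 beside HOXA (-1.21, FDR 0.0104) and ATP5G3 beside HOXD (0.83, FDR 0.0123) narrowly missed the threshold, in opposite directions. The 6 neighbours of HOXB lay between -0.33 and 0.83, and none passed.

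**Figure D3:**
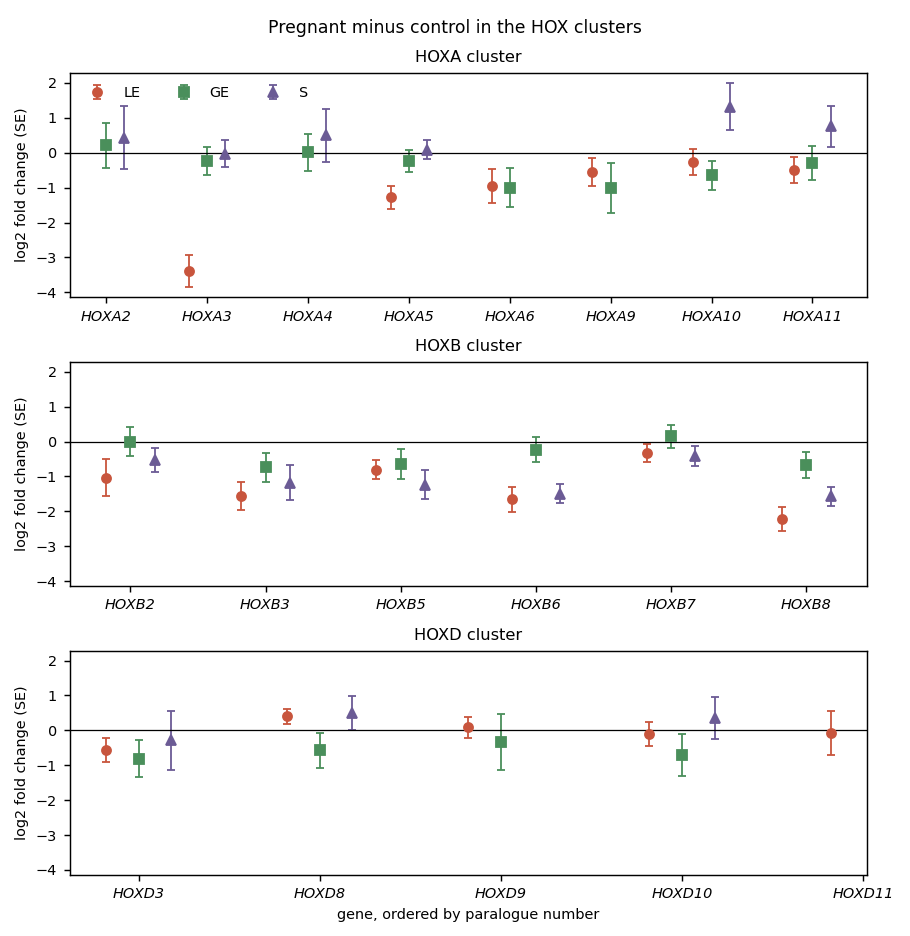
Log2 fold change (pregnant minus control, with SE) of the listed genes of the HOXA, HOXB and HOXD clusters, ordered by paralogue number, in LE (circles), GE (squares) and S (triangles). The 6 HOXB genes lie below 0 in LE and S, whereas HOXA3 is the lowest HOXA gene in LE and lies close to 0 in S.

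Along the HOX clusters, the 11 listed genes of paralogue groups 2 to 8 had a median log2 fold change of -1.03 in LE, with 6 lower at an unadjusted p below 0.05, against 16.2% of all LE genes. The 6 genes of groups 9 to 11 ranged from -0.55 to 0.09, with a median of -0.19 and 0 below that p. HOXA10 was at 34.9 ± 13.4 CPM in control and 28.6 ± 13.99 CPM in pregnant LE (SD, n = 4 each), a log2 fold change of -0.27 (SE 0.37, FDR 0.648). HOXA11 was at 20.4 ± 6.22 and 13.97 ± 7.54 CPM (-0.49, SE 0.37, FDR 0.374). The difference between the 2 sets of paralogue groups was not tested, because genes of one cluster are not independent. All listed HOXB genes fall in groups 2 to 8, and groups 9 to 11 hold only HOXA and HOXD genes. Paralogue number and cluster therefore cannot be told apart. HOXD3 and HOXD8, also in groups 2 to 8, had -0.56 and 0.41 in LE. In GE the medians were -0.24 for groups 2 to 8 and -0.64 for groups 9 to 11. HOXA5 was at 17.7 to 33.7 CPM in controls and 6.02 to 14.6 CPM in pregnant gilts (-1.28, FDR 0.0227), with 12.7% of its exon bases shared with HOXA6. HOXA6 and HOXA9 had mean levels of 9.50 and 7.54 CPM in LE, and HOXD3, HOXD8, HOXD9, HOXD10 and HOXD11 of 10.6, 38.4, 14.2, 34.9 and 7.64 CPM. HOXA2 and HOXA4 were listed in GE and S and not in LE, and no gene of the HOXC cluster was listed.

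MSX1 and MSX2 also lay lower in pregnant LE without overlap, short of the threshold. MSX1 was at 94.0, 76.2, 70.2 and 57.4 CPM in control gilts 02, 04, 06 and 13, and at 1.2, 22.3, 17.3 and 40.5 CPM in pregnant gilts 01, 03, 05 and 14 (log2 fold change -1.76, SE 0.50, FDR 0.0291). MSX2 was at 30.9 to 49.0 CPM in control and 4.25 to 19.3 CPM in pregnant LE (-1.68, SE 0.40, FDR 0.0137). Both encode repressors that bind homeobox sites. DLX5 and DLX6, neighbouring genes of the distal-less family, had log2 fold changes of -1.16 (FDR 0.0124) and -1.06 (FDR 0.0561). SIX4 (-1.99, FDR 0.0395) was below the counting floor in 2 pregnant gilts, with 0 CPM in gilt 01 and 1.06 CPM in gilt 03.

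EMX2, which acts in the Müllerian duct, was at 59.3 to 66.2 CPM in control LE and at 3.61, 56.3, 43.2 and 35.2 CPM in pregnant gilts 01, 03, 05 and 14 (-0.79, SE 0.45, FDR 0.243), with gilt 01 alone at its counting floor. LHX1 and PAX8, which act with PAX2 in the Müllerian duct, could not be read: LHX1 was annotated and not listed, and the annotation holds no gene named PAX8.

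Among the cofactors of HOX proteins, PBX3 had 19.0 ± 1.19 CPM in control and 9.73 ± 3.41 CPM in pregnant LE (SD, n = 4 each; log2 fold change -0.91, FDR 0.0419), and MEIS1 112 ± 9.85 and 74.8 ± 27.1 CPM (-0.58, FDR 0.103). TGIF1, a repressor in TGF-beta and retinoid signalling, had 122 to 144 CPM in control and 146 to 187 CPM in pregnant LE (0.39, FDR 0.0848). POU2F1, an octamer-binding factor present in most cells, had a log2 fold change of -0.56 (FDR 0.0237). None of these 4 was called, nor were PBX2 at a mean of 42.4 CPM, PBX4 at 6.58 CPM, MEIS2 at 8.16 CPM, MEIS3 at 7.93 CPM, LHX6 at 6.12 CPM, SIX5 at 18.3 CPM, CUX1 at 129 CPM and POU5F2 at 72.8 CPM over the LE libraries. Of these, CUX1, SIX5 and MEIS2 share 35.9%, 27.1% and 20.5% of their exon bases with another gene, so their counts are uncertain.

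No member was called in GE, where the study's threshold was an unadjusted p of 0.0021, against 0.694% of all GE genes. In edgeR 1 member of 39 had an unadjusted p below 0.05, against 8.09% of all genes. DESeq2's test called no member in GE either, and edgeR called 0 without the GE libraries of gilts 01 and 02. PAX2 was at 49.9, 107, 336 and 101.3 CPM in GE of control gilts 02, 04, 06 and 13 and at 64.8, 69.7, 115 and 164 CPM in pregnant gilts 01, 03, 05 and 14. The groups overlapped, and the library of gilt 06 stood above the others (-0.51, SE 0.56, FDR 0.851). HOXA3 in GE was at 13.4 to 45.2 CPM in controls and 20.3 to 42.8 CPM in pregnant gilts (-0.23, SE 0.40). HOXB8 (-0.67, SE 0.36) and HOXB6 (-0.24, SE 0.36) overlapped as well.

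In the libraries labelled S, PAX2, HOXB8 and HOXB6 fell at p below 0.0021, 3 of 34 members or 8.82%, against 1.47% of all S genes and 1.05% in the lower direction. PAX2 was at 348, 288 and 394 CPM in control gilts 02, 04 and 13 and at 36.5, 83.7 and 94.7 CPM in pregnant gilts 01, 05 and 14. Its log2 fold change was -2.23 (SE 0.38, FDR 0.0995). HOXB8 was at 48.0, 71.5 and 57.7 CPM against 20.96, 19.8 and 17.5 CPM (-1.57, SE 0.26, FDR 0.0902). HOXB6 was at 193, 159 and 145 CPM against 38.8, 64.6 and 68.7 CPM (-1.49, SE 0.28, FDR 0.116). In these 3 genes the groups did not overlap, as in 7 members in all (20.6%, against 10.1% of all S genes). None of the 3 reached an FDR of 0.05. Without gilt 01, whose S library held the most stromal marker counts, the log2 fold changes of PAX2, HOXB8 and HOXB6 were -1.96, -1.68 and -1.33, and all 3 stayed below p of 0.0021. The count of members called was 1 without gilt 02, 04 or 05 and 0 without gilt 13. Markers of other cell types also differed between pregnant and control S. The 5 lymphatic endothelium markers summed to 15.6, 7.27 and 11.03 CPM in control gilts 02, 04 and 13 and to 315.1, 112.8 and 32.8 CPM in pregnant gilts 01, 05 and 14, with a median log2 fold change of 4.51 and 2 of 5 called higher. MMRN1, one of them, was at 0 in all 3 control libraries. The 11 stromal fibroblast and 3 smooth muscle markers had medians of 1.58 and 2.01, with 0 called, against 0.08 over all S genes. A fit with the stromal marker sum as a covariate was also run in S, and its values are not given here. The part of the lymphatic endothelium and smooth muscle markers in the results was not tested.

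HOXA3 did not pass in S, where it was at 18.3, 33.6 and 20.2 CPM in controls and 20.2, 15.7 and 32.8 CPM in pregnant gilts (-0.03, SE 0.39). PAX2 and the HOXB genes in the S libraries had control levels close to those of LE, for PAX2 343 ± 52.9 CPM (SD, n = 3) against 363 ± 32.7 CPM (n = 4). The epithelial marker sums of those S libraries are given above, and their part in these values was not tested.

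The pregnancy difference of PAX2 and HOXA3 was itself larger in LE than in GE. With the gilt as a block, the difference between the log2 fold changes was -3.38 for PAX2 (SE 0.53, FDR 0.0248) and -3.23 for HOXA3 (SE 0.46, FDR 0.0231). These 2 were the members called, of 36 (5.56%), against 1.41% of all 10851 genes and 0.627% in the lower direction. At an unadjusted p below 0.05, 14 members had a lower pregnancy difference in LE than in GE and 0 a higher one (38.9%, against 8.20% of all genes in the lower direction). Without gilt 03, 04 or 05 no member passed. Without gilt 01 PAX2 had an FDR of 0.0624, and without gilt 06 HOXA3 had an FDR of 0.0543. Between LE and S, 0 of 32 members passed, with 1 gene of 10890 called overall (0.00918%). There HOXA3 had the smallest p of the members (-3.36, SE 0.55, FDR 0.120), 10 members were lower at an unadjusted p below 0.05 (5.54% of all genes), and DESeq2's test called 2. Between GE and S, 0 of 34 members and 0 of 11124 genes passed in edgeR, 4 members had an unadjusted p below 0.05 (9.26% of all genes), and DESeq2's test called 1.

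HOXA3, DLX6, HOXA5, PBX3 and MSX1 were higher in GE than in LE, and no member was lower with all 8 gilts, averaged over control and pregnant gilts with the gilt as a block. This was 5 of 36 members (13.9%), against 30.9% of all genes in either direction and 15.9% in the higher one. HOXA3 was 6.60-fold higher (log2 fold change 2.72, SE 0.23, FDR 0.000426), in 8 of 8 gilts. DLX6 was 3.87-fold higher (1.95, SE 0.26, FDR 0.000987) in 7 of 8 gilts, and HOXA5 2.10-fold (1.07, SE 0.15, FDR 0.00130) in 8 of 8. PBX3 was 2.0-fold higher (SE 0.20, FDR 0.00553) in 8 of 8 gilts and MSX1 2.33-fold (1.22, SE 0.33, FDR 0.0198) in 7 of 8. The exception for DLX6 and for MSX1 was control gilt 02, whose GE library held the most stromal marker counts. MSX1 no longer passed without gilt 04 or without gilt 06. Without gilt 02, 13 members were called, 8 higher and 5 lower in GE, and the lower ones included HOXD8 (-0.81, FDR 0.0109), HOXD9 (-1.32, FDR 0.0386), HOXD10 (-1.31, FDR 0.0356) and ZEB1 (-0.79, FDR 0.0482). DESeq2's test called 8 members, of which HOXD10 (-1.03) and MEIS1 (-0.55) were lower. The number of all genes called also moved with the gilt left out, as the range at the end shows. These counts are therefore not read as particular to the members.

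**Figure D4:**
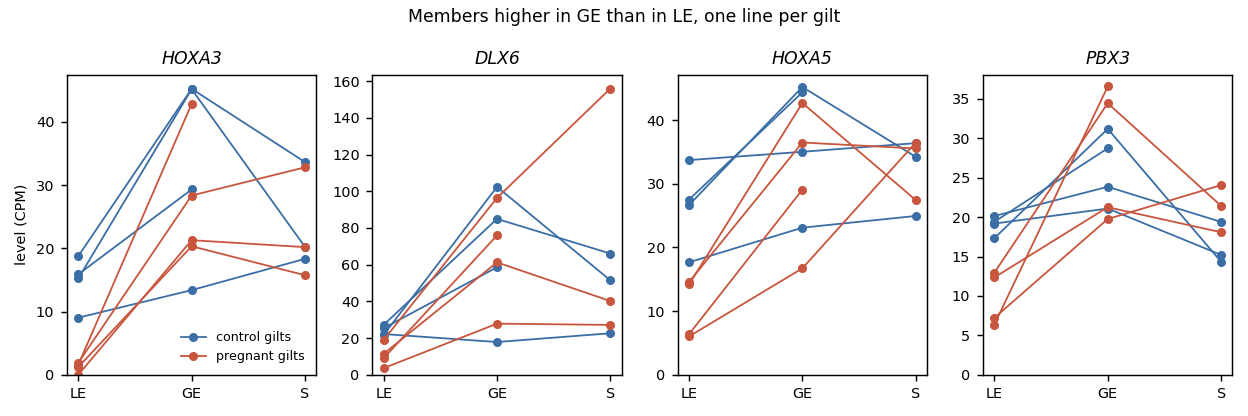
Level in CPM of HOXA3, DLX6, HOXA5 and PBX3 in LE, GE and S, with one line per gilt (blue control, red pregnant). The lowest LE values of all 4 genes belong to pregnant gilts, and HOXA3 is higher in GE than in LE in all 8 gilts.

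For PAX2 the order of GE and LE was opposite in the 2 groups of gilts, which is the interaction given above. Of 36 members, 2 were called in control gilts (7.49% of all genes) and 7, all higher in GE, in pregnant gilts (24.4%, and 12.8% higher). In control gilts PAX2 was lower in GE than in LE (-1.62, SE 0.37, FDR 0.0351) in 4 of 4 gilts. In pregnant gilts it was higher in GE (1.76, SE 0.38, FDR 0.00972), also in 4 of 4. HOXA3 was higher in GE in both, by 1.11 (SE 0.27, FDR 0.0409) in control and 4.34 (SE 0.36, FDR 0.000803) in pregnant gilts. In pregnant gilts DLX6, HOXA5, MSX1, PBX3 and MSX2 were also higher in GE, with log2 fold changes of 2.65, 1.65, 2.27, 1.53 and 1.75. None of these was called in control gilts. There the median was 0.09 over MSX1 and MSX2 and 0.41 over DLX5 and DLX6. HOXA5 and PBX3 were higher in GE in 4 of 4 control gilts. The LE libraries in these contrasts are the ones behind the pregnancy differences above, so both sets of values share samples.

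The S libraries differed from LE in HOXA3 (2.43, SE 0.27, FDR 0.00375), DLX6 (1.71, SE 0.25, FDR 0.00789) and HOXA5 (0.88, SE 0.21, FDR 0.0403), all higher in S in 6 of 6 gilts. This was 3 of 32 members (9.38%), against 9.32% of all genes in either direction and 4.67% in the higher one. These values average control and pregnant gilts. Taken apart, 0 of 32 members were called in control gilts and 5, all higher in S, in pregnant gilts. The share of all genes in these 2 contrasts is not given. HOXA3 was higher in S by 0.75 in control and 4.11 in pregnant gilts. The pregnant LE libraries here are those behind the pregnancy differences above. Without gilt 01, 8 members were called, and only 4 of them were higher in S: HOXA3, DLX6 and HOXA5 were at 2.35, 1.71 and 0.75. The 4 lower in S were HOXA10 (-0.98, FDR 0.0133), HOXD10 (-1.26, FDR 0.0199), ZEB1 (-1.01, FDR 0.0190) and ZEB2 (-0.57, FDR 0.0291). The number of all genes called between S and LE also moved with the gilt left out, by the range given at the end. The count of 8 is therefore not read as particular to the members. HOXA5 no longer passed without gilt 02, 04, 13 or 14, and HOXA5 and DLX6 did not pass without the gilt as a block. Between S and GE, 0 of 11124 genes passed in edgeR. There 6 of 34 members (17.6%) had an unadjusted p below 0.05, against 12.1% of all genes, and DESeq2's test called 1 member.

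ZEB1 and ZEB2, which are typical of mesenchymal cells, were not called between S and LE or between S and GE with all gilts, and both were lower in S than in LE without gilt 01, as given above. ZEB1 was at 48.4, 55.5 and 113 CPM in S of control gilts 02, 04 and 13, below the 98.9 to 169 CPM of control LE in 2 of the 3. In pregnant S it was at 291, 69.6 and 51.5 CPM in gilts 01, 05 and 14, so that gilt 01 stood far above the others. In GE, ZEB1 was highest in control gilt 02, at 295 CPM, against 29.3 to 118 CPM in the other control gilts. ZEB2 was highest in the same 2 libraries, at 229 CPM in S of gilt 01 and 323 CPM in GE of gilt 02. Across the libraries of each cell type, ZEB2 went with the summed stromal fibroblast markers (Spearman's rho 0.905 in GE and 0.762 in LE, n = 8 each; 0.886 in S, n = 6), as did ZEB1 (0.881, 0.762 and 0.600). HOXA10 went with the same sum in GE (0.881) and S (0.943) and less in LE (0.167). PAX2 had coefficients of -0.643, -0.429 and -0.0476 in GE, S and LE. These are descriptions over few libraries that share gilts, and they carry no p.

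**Figure D5:**
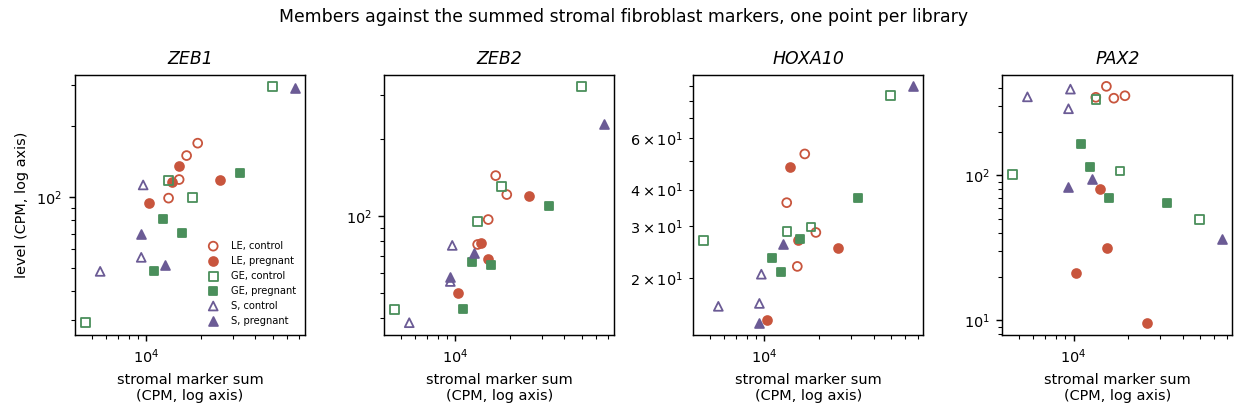
Level of ZEB1, ZEB2, HOXA10 and PAX2 in CPM against the summed CPM of 11 stromal fibroblast markers, both on log axes, one point per library (open control, filled pregnant; circles LE, squares GE, triangles S). ZEB1, ZEB2 and HOXA10 are highest in GE of control gilt 02 and S of pregnant gilt 01, the 2 libraries with the most stromal marker counts.

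Neither ZEB gene was called between pregnant and control gilts. In LE, ZEB1 was at 134 ± 31.4 CPM in control and 116 ± 16.6 CPM in pregnant gilts (SD, n = 4 each; -0.22, SE 0.20, FDR 0.476), and ZEB2 at 110 ± 29.1 and 79.3 ± 29.9 CPM (-0.50, SE 0.28, FDR 0.228). Of 27 epithelial genes that ZEB factors are known to repress, 26 were tested in LE, and 6 rose and 3 fell at an FDR below 0.01, against 6.33% and 3.71% of all LE genes. The tight junction genes MARVELD2 (2.06), CLDN3 (1.91) and CLDN4 (1.75) rose and the keratin gene KRT19 (-2.19) fell, as log2 fold changes. The median of this list was 0.27, against 0.01 over all LE genes.

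Per kilobase of exon, the level of PAX2 in control LE was followed by those of HOXB6 (60.6 ± 12 CPM per kb) and DLX5 (56.1 ± 13). TGIF1 stood at 49.8 ± 3.5 CPM per kb, and these 3 did not differ beyond their SDs. In pregnant LE, TGIF1 stood highest at 65.5 ± 7.1 CPM per kb. In control GE, MSX1 (54.4 ± 25), TGIF1 (44.2 ± 16) and DLX5 (43.6 ± 20) stood highest, with overlapping SDs. The annotated exons of DLX5 hold only 870 bases, against 3722 for DLX6, so its level per kilobase may be too high.

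Other genes of these pathways were read from 5 lists of known regulators and partners, of which the ZEB-repressed genes are given above. Of 24 other homeobox genes tested in LE, ZHX3 rose (1.06, FDR 0.00148) and SATB1, a chromatin organizer, fell (-1.45, FDR 0.00512). Of 26 cofactors of patterning factors, PAXBP1, which binds PAX proteins (1.56, FDR 0.00177), and the corepressor CTBP2 (1.31, FDR 0.00213) rose in LE, and EYA2, a partner of sine oculis proteins, fell in S (-2.0, FDR 0.124). Of 40 Polycomb and Trithorax genes, which keep HOX genes off or on, CBX6 fell (-2.31, FDR 0.00108) and the histone methyltransferase gene DOT1L rose (1.26, FDR 0.000709) in LE. Over all genes, 10.0% were called in LE at an FDR below 0.01 and 1.47% in S at p below 0.0021. The share called in LE was below that of all genes in each of these lists. The calls are therefore not read as particular to the lists.

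Of 38 genes of Müllerian duct and retinoid patterning tested in LE, 6 fell and 0 rose, against 3.71% and 6.33% of all LE genes, with a list median of -0.25 against 0.01 over all. The largest were CYP26A1, which breaks down retinoic acid (-4.04, SE 0.74, FDR 0.00382), WNT7A, a signal of uterine epithelium (-2.88, SE 0.48, FDR 0.00236), GATA2 (-2.18, FDR 0.000902) and the WNT receptor gene FZD6 (-2.15, FDR 0.000169). For GATA2 and FZD6 the pregnancy difference was lower in LE than in GE (-2.33 and -1.95, FDR 0.0380 and 0.0157). In S, CYP26A1 fell (-7.04, SE 1.02, FDR 0.0639) and BMP4 rose (2.10, FDR 0.124). None of the 5 lists held a gene called between pregnant and control gilts in GE.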

How the data were processed

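Gene counts of 22 libraries (LE 4 control and 4 pregnant, GE 4 and 4, S 3 and 3) were analysed from 3 tables, 1 per cell type. The authors made these counts from clipped reads mapped with HISAT2 to Sscrofa11.1 with the NCBI annotation, discarded duplicate reads with the help of random adapter bases and applied a CPM cutoff before the tables were deposited; the read counter and its strand setting are not given in the sources used here. No other filter was applied here, and 0 sample columns were left unused.

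Pregnant and control gilts were compared within each cell type by edgeR 4.0.16 (quasi-likelihood test, TMM scaling, Benjamini-Hochberg adjustment, R 4.3.3), with the thresholds of the study: FDR 0.01 in LE and unadjusted p 0.0021 in GE and S. Cell types were compared with the gilt as a block at FDR 0.05, since the paper states that the number in a sample name identifies the animal. The deviations of same-gilt libraries correlated by a median of 0.257 (LE and GE), 0.314 (LE and S) and 0.468 (GE and S). DESeq2 1.42.0, limma 3.58.1, other scalings, filters and blocks and leaving out each gilt were alternatives. The fit with the stromal marker sum as a covariate, and GE without gilts 01 and 02, were added after seeing the data. The fits were tested on simulated data. No pair of libraries was a duplicate: at least 98.23% of genes differed between any 2.

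Members and gene lists were chosen with earlier results of these data known. Named are members called in any comparison, and HOXA10, HOXA11, PAX2, PAX8, EMX2, LHX1, MSX1, MSX2, MEIS1, ZEB1 and ZEB2 whatever their result; the other members are given by level, fold changes outside this rule were chosen after their values were seen, and up to 4 genes with the largest fold are named per list and comparison. Of the members, 6 share over 10% of their exon bases with another gene. The values of 2 members and the start region of another are not reported here; the counts of members include them.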

Additional observations from a re-analysis of the deposited data

Results flagged for a closer look

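DLX5 in pregnant LE was at 10.84 CPM in gilt 01, far below the other 3 gilts, which lay between 24.4 and 24.7 CPM. HOXA10 in control GE was at 83.53 CPM in gilt 02, far above the 26.8 to 29.8 CPM of the other 3; that library also held the most stromal marker counts of GE, and their part in the value was not tested. Of 80 groups of 4 libraries examined for such a value, these 2 stood out, and chance gives about 1 in 20. The pregnancy difference was larger in LE than in GE for HOXA3 (-3.227 on the log2 scale, FDR 0.0231 in edgeR) and PAX2 (-3.382, FDR 0.0248), by a test of the difference itself.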

How the results depend on the processing

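Counts of called members and genes are given here where they moved by more than 1.5 times. With DESeq2's test, called members were 12 in LE, 8 between GE and LE, 6 in the LE-GE difference of pregnancy effects, 5 between S and LE, 2 in the LE-S difference, 1 between S and GE and 1 in the GE-S difference; called genes were 2182 in LE, 241 in GE, 512 in S, 622, 1546 and 269 in the LE-GE difference, S against LE and the LE-S difference, and 326 and 140 in S against GE and the GE-S difference. At an FDR of 0.05 LE had 13 members and 2557 genes, GE 2 genes, and S 0 members and 29 genes. At an FDR of 0.01, 1645 genes were called between GE and LE and 145 between S and LE. Scaling by library size alone gave 6 members in LE. The gilts that have an S library gave 1 member and 435 genes in LE and 35 genes in GE, with PAX2 in GE at 0.40. The stromal marker sum as a covariate gave 7 members in LE and 1 in GE, with 137 genes in GE.

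Without the gilt as a replicate block, the LE-GE difference had 1 member and 104 genes, S against LE 1 member and 134 genes, and the LE-S difference 0 genes; a random block gave 10 members between GE and LE and 255 genes in the LE-GE difference. One joint fit gave 312 genes in the LE-GE difference, and 1 member and 5 genes in the LE-S difference. No paired analysis was possible for pregnant against control because the groups are different animals.

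Leaving out 1 gilt, called members ranged from 3 to 9 in LE (9 without gilt 14, 7 without gilt 01), 0 to 3 in S, 4 to 13 between GE and LE (13 without gilt 02), 2 to 8 between S and LE (8 without gilt 01), 0 to 2 in the LE-GE difference and 0 to 1 in the LE-S difference. Called genes ranged from 588 to 1643 in LE, 42 to 100 in GE, 65 to 221 in S, 2238 to 3805 between GE and LE, 173 to 1249 between S and LE, 0 to 206 in the LE-GE difference and 0 to 338 in the LE-S difference. The sign changed for HOXA10 in LE (-0.67 to 0.0104), PAX2 in GE (-0.84 to 0.28), HOXB6 in GE (-0.47 to 0.0198) and HOXA3 in S (-0.38 to 0.27), none of them called. Members called higher ranged from 0 to 1 in LE, 4 to 8 between GE and LE and 2 to 4 between S and LE. The causes were not tested. Low counts limit HOXA3, SIX4 and MSX1 in pregnant LE.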
